A study of Xenopus laevis with 54 samples.

Results

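The step from 8 to 9 hours post fertilization (hpf) in RNA captured as newly made was described in the frog Xenopus laevis. In this frog many genes exist as an L and an S copy, called homeologs. The step was read in 8 of the 54 libraries of the series, namely bead RNA of replicates 1 to 4 at 9 hpf and at 8 hpf. Wildtype embryos had received EU (5-ethynyl uridine, which new RNA takes up in place of uridine) as single cells, by injection of 10 nl at 50 mM, which gave about 0.5 mM in the embryo, and were kept at 22 °C. RNA holding EU was biotinylated and captured on streptavidin beads, which gave the bead RNA, and what was not captured is the flowthrough. The 4 replicates are clutches. Clutches 1 and 2 belong to experiment 1 and clutches 3 and 4 to experiment 2, so that the libraries of 8 and 9 hpf with the same number share a clutch. EU was present in every library compared, and no capture from embryos without EU is analysed here, so RNA that sat on the beads without a label was not measured. Since EU was given once, labelled RNA on the beads at 9 hpf was made at any time since injection. A rise is thus a rise of bead RNA, in which accumulated labelled RNA and any unlabelled RNA are not told apart.

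The hours from 8 to 9 hpf lie in the blastula, when the embryo's own genome has come into use after cleavage divisions that run on maternal RNA. Maternal T-box and Wnt activities then lead to Nodal signals, and these switch on transcription factors of the mesoderm and endoderm, while BMP signals act ventrally and the dorsal organizer makes BMP antagonists. Maternal messages such as those of early cyclins are deadenylated and cleared in the same period. In whole embryos, fewer cells of a type and less RNA per cell cannot be told apart.

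Of 50489 genes in the table, 18296 reached 10 in 4 or more of the 8 libraries and were tested. The values are the authors' normalized values, rounded to whole numbers, and steps are differences of log2(value + 1) between 9 and 8 hpf. A gene called higher or lower had an adjusted p under 0.05 and a change of at least 2-fold. Because a gene can pass the filter through 9 hpf alone, results are also given for the 7726 genes at 10 or more in all 8 libraries, a set that leaves out genes listed at 0 at 8 hpf in some library.

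The libraries of experiment 2 stood apart. Of the tested genes, between 0.12% and 0.372% were listed at 0 in the 4 bead libraries of experiment 1. In experiment 2 it was 12.7% and 33.2% at 8 hpf and 26.4% and 35.9% at 9 hpf, for replicates 3 and 4. Flowthrough libraries of the same clutches had 3.7% to 5.33% of these genes at 0 in both experiments. A gene can pass the filter through the 4 bead libraries of experiment 1 alone, which lowers their share at 0. Over the whole table, 26114 to 28348 genes were above 0 in those libraries and 12814 to 17672 in the bead libraries of experiment 2. Column totals ran from 7894363 to 15200969 and were higher at 9 than at 8 hpf in all 4 pairs. They reflect the scaling, so depth is unknown and no counting interval is given. The smallest value above 0 was 2 and 3 in replicate 4 at 8 and 9 hpf and 1 in the other 6 libraries. The main counts are therefore given also by experiment, while the flowthrough test, the homeolog test and the list medians are over all 4 clutches unless stated.

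**Figure D1:**
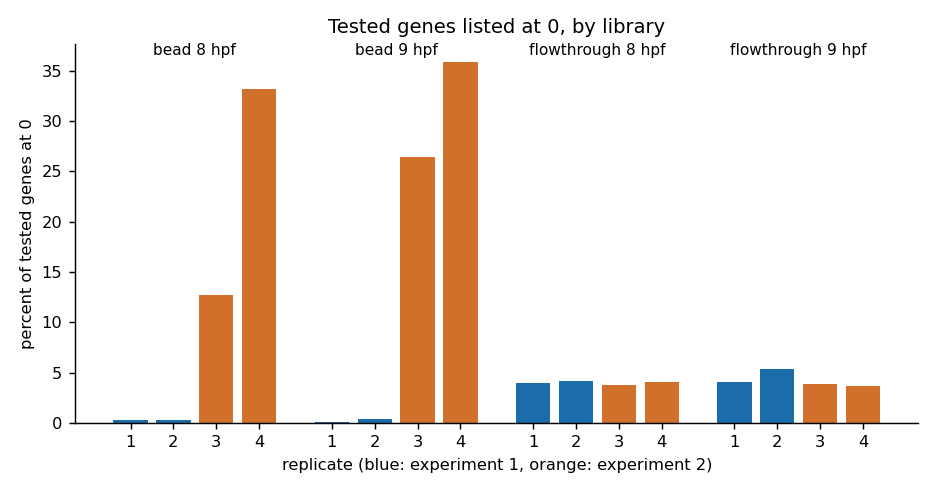
Percent of the 18296 tested genes listed at 0 in each bead and flowthrough library at 8 and 9 hpf, by replicate (blue, experiment 1; orange, experiment 2; linear axis from 0). The bars of bead replicates 3 and 4 reach 12.7% to 35.9%, and all other bars are at or under 5.33%.

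Where the step was called over all 4 clutches, it was upward. In the paired limma fit over all 18296 genes 0 were called higher (0%) and 0 lower (0%), with a smallest adjusted p of 0.231, while 621 were higher and 115 lower at an unadjusted p under 0.05. Among the 7726 genes measured at 10 or more in every library, 44 rose (0.57%) and 0 fell (0%), and at an unadjusted p under 0.05 there were 593 higher and 140 lower. Without a test, 1652 genes (9.03%) were higher at 9 hpf in all 4 pairs and 1350 (7.38%) lower in all 4. By at least 2-fold, 179 genes (0.978%) stepped up in all 4 pairs and 7 (0.0383%) stepped down, and among the 7726 genes these counts were 82 and 0. The smallest step of any of the 44 genes in any clutch was 0.67 on the log2 scale, 29 of the 44 were at least 2-fold higher in all 4 pairs, and the groups of 8 and 9 hpf did not overlap for 24 of them. Over all 7726 genes 2.06% were higher and 1.04% lower without overlap, and the 44 were called on these same values. Leaving out replicate 3 or replicate 4 left 0 calls in limma, and the smallest adjusted p among the 44 genes was then 0.193 and 0.0532. The 44 steps were then 0.91 or more without replicate 3 and 0.98 or more without replicate 4. That they stayed above 0 was fixed beforehand, because every pair of the 44 genes rose. Without the pairing by clutch 4 genes were called with a term for experiment and 1 with none. After quantile normalization 30 genes were called higher and 2 lower, and 27 of the 44 stayed called.

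Experiment 1 alone gave the larger number of calls. Its fit has only 2 pairs, so its SE and p-values rest largely on variance borrowed from other genes. There, 498 genes rose (2.72%) and 21 fell (0.115%), and among the 7726 genes 249 rose (3.22%) and 5 fell (0.0647%). In experiment 2 alone, limma called 0 of the 18296 genes higher (0%) and 0 lower (0%), with 434 higher and 694 lower at an unadjusted p under 0.05. On the 7726 genes experiment 2 gave 51 higher (0.66%) and 2 lower (0.0259%). That fit too has only 2 pairs and rests largely on borrowed variance, so a call does not show that both clutches moved alike. For instance, qki.S was called with steps of 1.06 in replicate 3 and 6.77 in replicate 4. The limma test of a different step in the 2 experiments passed for 0 genes (0%), with 375 steps larger and 969 smaller in experiment 2 at an unadjusted p under 0.05.

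The experiments share no library, so the genes called in one could be read in the other, though the filter drew on both. Of the 249 genes that rose in experiment 1 among the 7726, 230 had a mean step above 0 in experiment 2, 187 stepped up in both of its pairs, and 27 were called there. Over all 7726 genes 0.66% were called higher there, and the share of all genes that stepped up in experiment 2 is not given here. The median step of the 249 was 1.37 in experiment 1 and 1.29 in experiment 2, against 0.11 for all 7726 genes in experiment 2. Over the wider set of 498 genes, 396 stepped up on average in experiment 2, and 229 were listed at 0 in at least 1 of its libraries. The median step of the 498 there was 1.53, against -0.05 for all tested genes. Some of the 498 passed the filter only through a 9 hpf library of experiment 2, which favours a step up there. For instance, mespb.S was at 5, 11, 0 and 7 at 8 hpf and at 68, 109, 0 and 134 at 9 hpf. The 396 and the 1.53 are thus not a fully separate reading. Of the 44 genes, 39 were called in experiment 1 alone and 21 in experiment 2 alone. The 44 were chosen on both experiments together, so these 2 counts are not a separate reading of them.

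**Figure D2:**
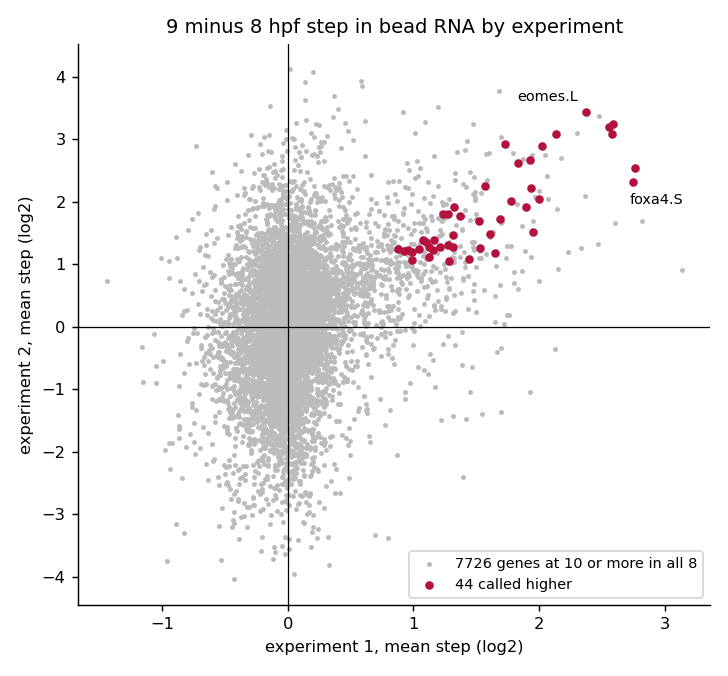
Mean step from 8 to 9 hpf in bead RNA (log2 of value + 1) in experiment 1 (x axis, replicates 1 and 2) against experiment 2 (y axis, replicates 3 and 4) for the 7726 genes at 10 or more in all 8 libraries. Grey points are all genes and red points the 44 called higher over both; the red points lie in the upper right, and the grey cloud is wider along the axis of experiment 2.

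Among the called genes with a symbol, the largest steps were those of eomes, mixer and foxa4. Both homeologs of eomes, which encodes a T-box transcription factor of mesoderm and endoderm, came before the others. The values of eomes.S were 836, 716, 112 and 392 at 8 hpf and 4950, 4174, 1668 and 2221 at 9 hpf for replicates 1 to 4. Every library of 9 hpf was above every library of 8 hpf, and experiment 2 was below experiment 1 at both times. The step was 2.87 ± 0.29 on the log2 scale (moderated SE of limma, 4 pairs, adjusted p = 0.0309), or 7.32-fold. Each ± given here is such an SE, drawn in part from other genes, and is not the spread of the pairs. The eomes.L copy went from 576, 573, 109 and 66 to 3351, 2645, 542 and 1583, a step of 2.90 ± 0.44 (adjusted p = 0.0409). Its library of replicate 3 at 9 hpf was below replicates 1 and 2 at 8 hpf, so the groups overlapped while all pairs rose.

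Mixer is a homeobox factor that works in endoderm. Its S copy, mixer.S, stood at 350, 443, 134 and 207 at 8 hpf and at 1664, 1793, 1151 and 1753 at 9 hpf, with no overlap (step 2.61 ± 0.30, adjusted p = 0.0358). The mixer.L copy was at 799, 962, 317 and 577 and then at 3055, 3495, 1400 and 1874, again with no overlap (1.91 ± 0.19, adjusted p = 0.0309). Foxa4, a forkhead factor of the organizer and notochord, rose as foxa4.S from 193, 235, 95 and 351 to 1354, 1523, 945 and 879 (2.53 ± 0.39, adjusted p = 0.0445). All 4 libraries of 9 hpf exceeded the highest of 8 hpf, and replicate 4 had the smallest of the 4 steps. Its partner foxa4.L was at 375, 388, 71 and 917 and then at 1563, 1894, 1403 and 1967, a step of 2.43 ± 0.49 with an adjusted p of 0.097, and it rose in experiment 1 (2.17 ± 0.11, adjusted p = 1.89e-08).

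Snai1, a zinc finger repressor that lowers cadherin expression in cells about to move, rose in both copies. For snai1.S the values were 518, 510, 182 and 396 and then 2064, 1880, 1062 and 1462 (2.07 ± 0.24, adjusted p = 0.0358). The snai1.L copy was at 570, 626, 245 and 1570 and then at 2355, 2428, 1703 and 3811 (2.02 ± 0.27, adjusted p = 0.0366). Groups did not overlap in either copy, and replicate 4 was the highest library of snai1.L at both times. Unlike the S copy, snai1.L was also present at 91 to 131 in flowthrough at 8 hpf, where snai1.S was at 0 to 6.

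The other genes with the largest smallest step had varied roles. The winged helix gene stox1.S was at 328, 467, 398 and 1011 at 8 hpf and at 1210, 1615, 2054 and 7353 at 9 hpf, the last being far above the other libraries (2.22 ± 0.25, adjusted p = 0.0358). A member of the BTG family of antiproliferative proteins, btg5.3.L, went from 600, 536, 264 and 60 to 2004, 1764, 1834 and 509, with overlap because of replicate 4 (2.33 ± 0.33, adjusted p = 0.0389). The Ras-association gene rassf7.L rose from 492, 506, 254 and 600 to 1559, 1412, 1378 and 2526 without overlap (1.91 ± 0.25, adjusted p = 0.0366). For znf750.L, whose human counterpart is a zinc finger factor of epidermal differentiation, 639, 664, 219 and 575 were followed by 1555, 1710, 907 and 1975 (1.62 ± 0.24, adjusted p = 0.0409), with no overlap.

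**Figure D3:**
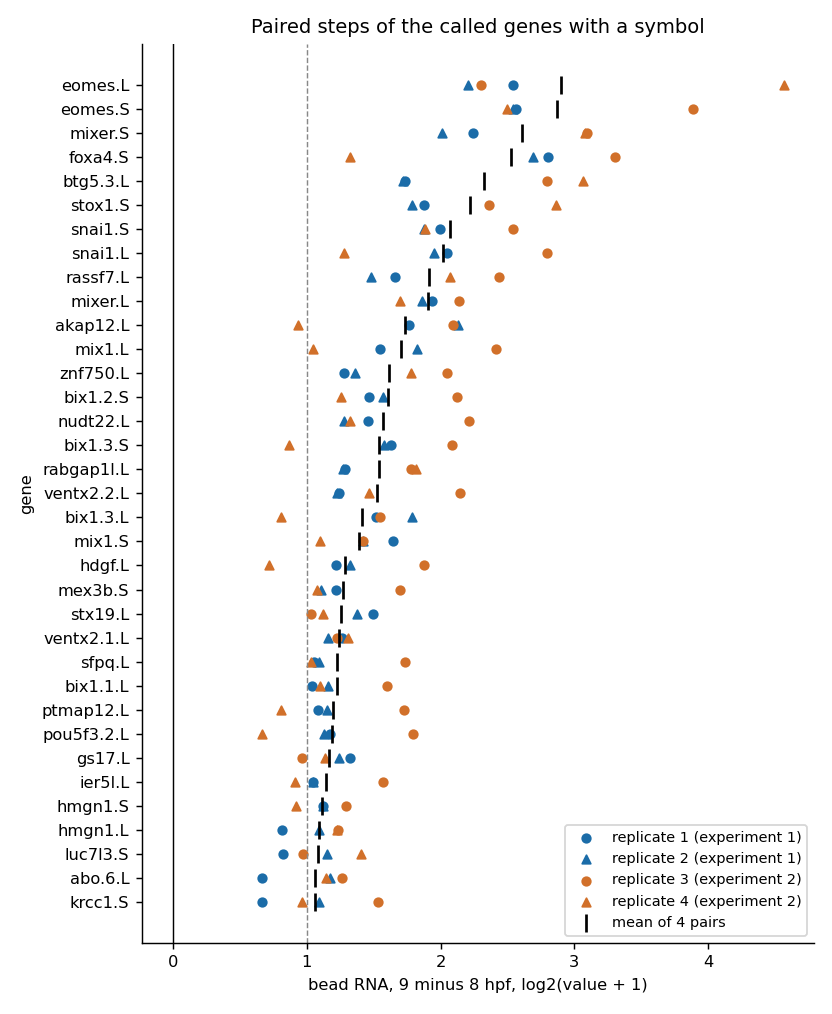
Steps from 8 to 9 hpf in bead RNA, log2(value + 1), for each of the 4 clutches (x axis) of the 35 called genes that have a symbol (y axis); the black tick is the mean, the solid line 0 and the dashed line a 2-fold step. Every point lies to the right of 0, the smallest being at 0.67, and the clutches of experiment 2 (orange) are more spread than those of experiment 1 (blue).

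In level, the largest gain among the 44 genes with a symbol was that of pou5f3.2.L, a relative of the mammalian pluripotency factor Oct4. It rose from 8613, 8647, 5409 and 12144 to 19480, 18939, 18799 and 19276 (1.19 ± 0.18, adjusted p = 0.0409), and the 4 libraries of 9 hpf lay close together. The nuclear growth factor gene hdgf.L went from 3849, 3812, 7141 and 17383 to 8974, 9527, 26209 and 28691 (1.29 ± 0.18, adjusted p = 0.0389). Its experiment 2 libraries were higher than those of experiment 1 at both times, so the groups overlapped, and all 4 pairs rose. Hmgn1, a nucleosome-binding protein, rose as hmgn1.S from 4073, 3971, 4445 and 11035 to 8857, 8661, 10886 and 20897 (1.11 ± 0.11, adjusted p = 0.0309). Replicate 4 was the highest at both times, and its value at 8 hpf lay above 3 of those at 9 hpf.

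The other genes of large level gain differed between experiments by more than they changed with time. The glycosyltransferase gene abo.6.L was at 1479 and 1363 in experiment 1 and at 7335 and 18651 in experiment 2 at 8 hpf, and at 2351, 3083, 17629 and 41343 at 9 hpf (1.06 ± 0.14, adjusted p = 0.0366). The splicing factor gene luc7l3.S was at 904, 819, 4826 and 9388 and then at 1599, 1818, 9486 and 24897 (1.09 ± 0.15, adjusted p = 0.0366). For ptmap12.L the values were 1883, 1250, 6361 and 9586 and then 4001, 2786, 21043 and 16788 (1.19 ± 0.17, adjusted p = 0.0389). In each of these 3 genes the step held within every clutch while levels overlapped between times. The same gap between experiments was present at 5 hpf, where luc7l3.S was at 397 and 320 in experiment 1 and at 1302 and 2422 in experiment 2.

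Under the 2-fold limit lay 12 more genes with an adjusted p under 0.05, read after their values were seen. They include RNA-binding and nuclear proteins: hnrnpu.L (0.97), ybx1.S (0.92), hnrnpdl.L (0.84), sfpq.S (0.83), snrnp70.L (0.83) and snrnp70.S (0.80), ptma.L (0.89) and hmgb2.L (0.72), given as log2 steps.

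The bead values at 5 hpf divided the 44 genes. Of these, 23 had a mean under 10 at 5 hpf and 16 a mean of 100 or more, against 317 and 7008 of the 7726 genes. Eomes.S belonged to the first kind, with bead values of 0, 1, 0 and 0 at 5 hpf and 61, 47, 50 and 0 at 7 hpf. Pou5f3.2.L belonged to the second, with 724, 444, 857 and 663 at 5 hpf and 3904, 3053, 2767 and 4615 at 7 hpf. The median of the 44 genes' mean levels was 6.38 at 5 hpf, 239.5 at 7 hpf, 1070 at 8 hpf and 3075 at 9 hpf. Over the 7726 genes that median was 513 at 5 hpf and 564.8 at 9 hpf.

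**Figure D4:**
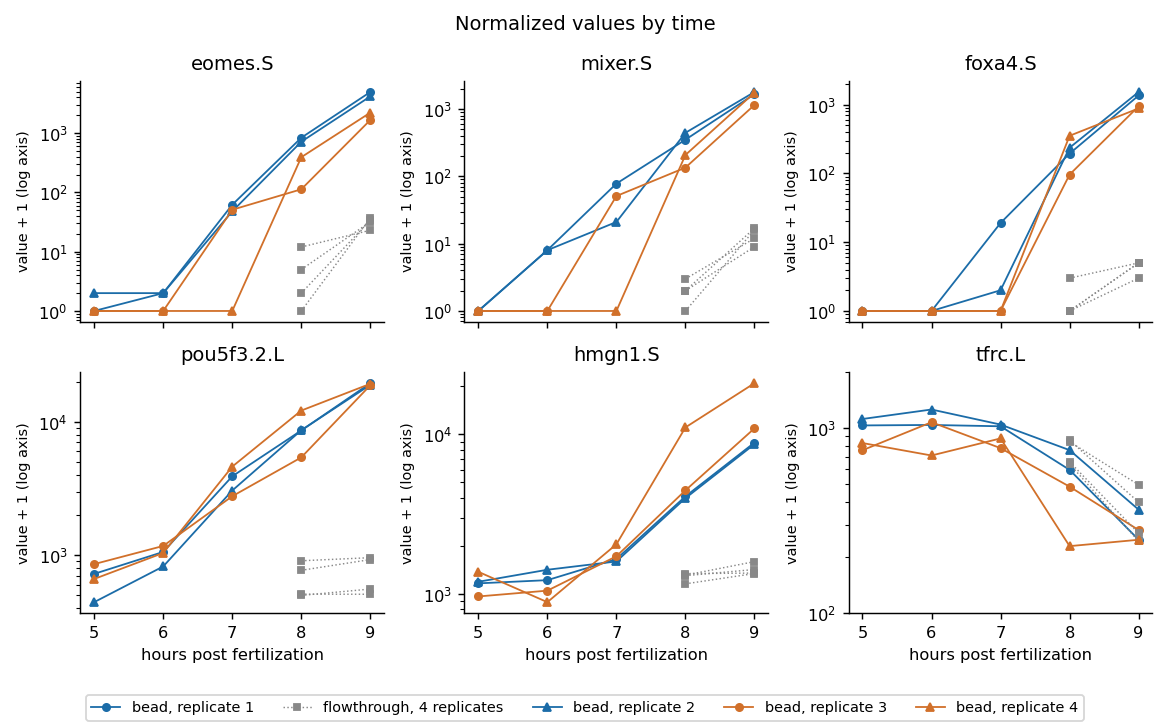
Normalized value + 1 (log axis) against time in hpf for 6 genes, with 1 line per bead replicate (blue, experiment 1; orange, experiment 2) and dotted grey lines for the 4 flowthrough replicates at 8 and 9 hpf. eomes.S, mixer.S and foxa4.S start near 0 and reach 879 to 4950 at 9 hpf, pou5f3.2.L and hmgn1.S start from 444 to 1371, and tfrc.L was lower at 9 than at 8 hpf in 3 of the 4 bead replicates and in all 4 flowthrough replicates.

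The same genes were read in the other fractions of the clutches. In flowthrough, eomes.S was at 4, 0, 1 and 11 at 8 hpf and at 31, 36, 33 and 22 at 9 hpf. In total RNA, which exists for replicates 1 and 2 at these times, it was at 251 and 191 and then at 1332 and 1077. Of the 44 genes, 42 were higher at 9 hpf in both pairs of total RNA, against 36.2% of the 7726 genes, and 27 were at least 2-fold higher in both, against 1.7%. Their median step was 1.54 in bead RNA, 1.28 in total RNA and 0.79 in flowthrough, the last from a median level of 9.38 to one of 30.5. Single genes differed in this. The flowthrough step was above the bead step for eomes.S (3.23 against 2.87) and mixer.S (2.81 against 2.61), at low flowthrough values. It was below the bead step for stox1.S (-0.09 against 2.22) and rassf7.L (-0.64 against 1.91).

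A test of the bead step against the flowthrough step over the 18296 genes called 0 (0%), with 487 bead steps above and 76 below at an unadjusted p under 0.05 in limma. Over the 7726 genes it called 2 (0.0259%), named here after their values were seen: tgif2.S, a homeobox repressor, with a bead step 1.60 ± 0.18 above its flowthrough step, and hmgn1.L with 1.05 ± 0.13 (adjusted p = 0.0393 for both). Flowthrough values of hmgn1.S were 1306, 1296, 1336 and 1152 at 8 hpf and 1588, 1417, 1346 and 1337 at 9 hpf. The bead step of hmgn1.S lay 0.96 ± 0.12 above its flowthrough step (adjusted p = 0.0393), which is under the 2-fold limit.

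L and S copies were compared in their steps. The difference of steps passed an adjusted p of 0.05 for 0 of 4519 homeolog pairs (0%) in limma, with 23 larger in L and 23 larger in S at an unadjusted p under 0.05. The steps of eomes.L and eomes.S were 2.90 and 2.87, and those of snai1.L and snai1.S 2.02 and 2.07. Of the pairs named here, rassf7 had the widest gap: rassf7.S was at 318, 350, 221 and 256 and then at 288, 306, 118 and 414, a step of -0.14 against 1.91 for rassf7.L (unadjusted p = 0.00897, adjusted p = 0.785). The stox1.L copy had a step of 0.47 against 2.22 for stox1.S (unadjusted p = 0.0182, adjusted p = 0.785). Copies of near-identical sequence may have shared reads, which makes these splits uncertain.

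Gene lists of pathways and cell types were then read. Lists and members were chosen with earlier results of these data known, so their shares describe the lists and do not test them. Members that passed the filter were 21 of 37 in the table for endoderm, 28 of 53 for mesoderm, 37 of 45 for the organizer, 23 of 31 for Nodal, 32 of 49 for BMP, 60 of 87 for ectoderm and 31 of 33 for Pou5f3 and partners. They were 63 of 83 for adhesion and movement, 34 of 42 for FGF feedback, 60 of 108 for Wnt, 43 of 59 for Notch, 26 of 43 for retinoic acid and 55 of 72 for immediate early genes. Over all tested genes 2.72% rose and 0.115% fell in experiment 1, and 0.57% rose and 0% fell over all clutches in the stricter set, and list counts are to be read beside these shares. The counts are of members that passed, and a gene at 0 at 8 hpf could pass only by its 9 hpf values.

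The share of called members was highest in the endoderm and mesoderm lists. Of 21 tested endoderm genes, 14 rose in experiment 1 (66.7%, against 2.72% of all tested genes) and 0 fell. Of the 15 in the stricter set 8 rose over all clutches (53.3%, against 0.57%). All 8 are related homeobox genes of the Mix and Bix type: both copies of mixer, mix1 and bix1.3, with bix1.1.L and bix1.2.S. They are therefore not independent members, reads may be split between such copies, and no Sox17 or Gata gene is among them. The median step of those 15 was 1.42, against 0.06 over all 7726 genes. Mix1, a homeobox factor induced by Nodal signals, rose as mix1.L from 1952, 1735, 1298 and 4227 to 5699, 6158, 6910 and 8742 (1.71 ± 0.22, adjusted p = 0.0366), with no overlap. The mix1.S copy went from 1542, 1692, 726 and 1133 to 4816, 4526, 1945 and 2424 (1.39 ± 0.16, adjusted p = 0.0358). The related bix1.3.S went from 1432, 1518, 541 and 1274 to 4443, 4545, 2301 and 2322 (1.54 ± 0.22, adjusted p = 0.0389), and it belongs to a cluster of repeated genes between which reads may be split.

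Sox17b.1.L, a HMG-box factor that specifies endoderm, was not called: it was at 1317, 1282, 382 and 1383 and then at 2289, 2411, 461 and 852 (0.32 ± 0.30, adjusted p = 0.687). Its replicate 4 stepped down while the other 3 stepped up. Other Sox17 genes, read after their values were seen, were called higher in experiment 1 and stepped up in all 4 clutches. They were sox17a.L (experiment 1 step 1.39), sox17a.S (1.14) and sox17b.1.S (1.17), and none was called over all clutches. The zinc finger factor gata4.S, absent from the stricter set, rose in experiment 1 from 11 and 11 to 166 and 106 (3.48 ± 0.40, adjusted p = 3.74e-05), and in experiment 2 it was at 0 and 38 and then at 168 and 711.

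In the mesoderm list 17 of 28 tested genes (60.7%) rose in experiment 1 and 0 fell, and 4 of 10 rose over all clutches, namely both copies of eomes and of snai1. The median step of those 10 genes was 1.5. The T-box gene vegt.L, whose RNA is maternal, was not called (0.21 ± 0.19, adjusted p = 0.679). It was at 1700, 1851, 1011 and 1488 at 8 hpf and at 2580, 2219, 1157 and 1284 at 9 hpf, and at 1697, 1511, 767 and 477 already at 5 hpf. The bHLH gene mespb.S, which acts in paraxial mesoderm, rose in experiment 1 from 5 and 11 to 68 and 109 (3.36 ± 0.47, adjusted p = 0.00025), with 0 and 7 and then 0 and 134 in experiment 2.

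Of 37 tested organizer genes 17 (45.9%) rose in experiment 1 and 0 fell, and in the stricter set foxa4.S was the 1 called of 15, with a median step of 1.36. Chordin, a secreted BMP antagonist, rose in experiment 1 as chrd.1.S (1.37 ± 0.12, adjusted p = 2.38e-06). Its values were 381, 384, 243 and 629 at 8 hpf and 1053, 937, 304 and 1052 at 9 hpf, where replicate 3 was low. The homeobox gene hhex.L of the anterior endoderm rose in experiment 1 from 12 and 24 to 183 and 241 (3.55 ± 0.33, adjusted p = 4.32e-06). In experiment 2 hhex.L was at 7 and 0 and then at 6 and 0. The notochord homeobox gene not.L was not called, at 1241, 1086, 356 and 570 and then 1859, 1244, 589 and 1137 (0.62 ± 0.23, adjusted p = 0.454).

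Among Nodal ligands and their antagonists 7 of 23 tested genes (30.4%) rose in experiment 1 and 0 fell, and 0 of the 8 in the stricter set were called by limma over all clutches. The median step of those 8 was 0.38. The ligand nodal2.L rose in experiment 1 (2.60 ± 0.25, adjusted p = 6.76e-06), and its values were 39, 41, 34 and 211 at 8 hpf and 237, 260, 182 and 407 at 9 hpf. For the Nodal antagonist lefty.L, 183, 198, 30 and 486 were followed by 632, 609, 50 and 184, a rise in experiment 1 (1.70 ± 0.15, adjusted p = 2.4e-06) with a lower value at 9 hpf in replicate 4. The ligand gdf3.S rose in experiment 1 (1.22 ± 0.13, adjusted p = 1.16e-05) and was at 205 and 580 and then at 266 and 656 in experiment 2. The maternal antagonist dand5.L was not called and was at 1010, 1145, 117 and 306 and then at 954, 1082, 94 and 483.

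On the ventral side 13 of 32 tested BMP-related genes (40.6%) rose in experiment 1 and 0 fell, with 2 of 20 called over all clutches and a median step of 1.23. Both called genes encode homeobox repressors of the Ventx family. The ventx2.2.L gene went from 1355, 1259, 882 and 1717 to 3212, 2956, 3915 and 4753 (1.52 ± 0.20, adjusted p = 0.0366), with no overlap. For ventx2.1.L it was 1411, 1363, 527 and 792 and then 3390, 3043, 1237 and 1966 (1.24 ± 0.16, adjusted p = 0.0366). The BMP target id3.L rose in experiment 1 (1.74 ± 0.11, adjusted p = 1.65e-07), as did ventx1.2.S (1.94 ± 0.13, adjusted p = 2.18e-07). In experiment 2 id3.L was at 294 and 483 and then at 883 and 737, and ventx1.2.S at 329 and 68 and then at 1266 and 807. The ventx2.2.S copy, at 2847, 2444, 1054 and 3099 and then 5103, 5003, 2244 and 3386, was not called over all clutches (0.77 ± 0.19, adjusted p = 0.185).

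Of 60 tested ectoderm genes 12 rose in experiment 1 (20%, against 2.72% of all tested genes) and 0 fell, and znf750.L was the 1 called of 38 over all clutches (2.63%, against 0.57%), where the median step was 0.40. The epidermal factor grhl3.L rose in experiment 1 (1.49 ± 0.13, adjusted p = 1.61e-06) and was at 378, 448, 465 and 430 and then at 1225, 1092, 1082 and 3700. Sox3.S, an early neural and pluripotency factor, was at 7651, 6085, 3529 and 4862 and then at 10925, 8023, 5861 and 5888 (0.48 ± 0.12, adjusted p = 0.189).

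Pou5f3 paralogs and their partners gave 7 of 31 tested genes (22.6%) higher in experiment 1 and 0 lower, and 1 of 22 over all clutches, pou5f3.2.L, with a median step of 0.28. Among them pou5f3.2.S rose in experiment 1 from 7728 and 6926 to 15930 and 13854 (1.02 ± 0.07, adjusted p = 3.94e-07), with 2924 and 7784 and then 7768 and 10327 in experiment 2. The paralog pou5f3.1.L rose in experiment 1 from 156 and 161 to 873 and 775 (2.37 ± 0.15, adjusted p = 9.55e-08) and was at 46 and 179 and then at 248 and 620 in experiment 2. Sall4.L, a zinc finger partner of Pou5f3, was at 3786, 3779, 4434 and 3864 and then at 5106, 4096, 4263 and 7547 and was not called (adjusted p = 0.586).

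**Figure D5:**
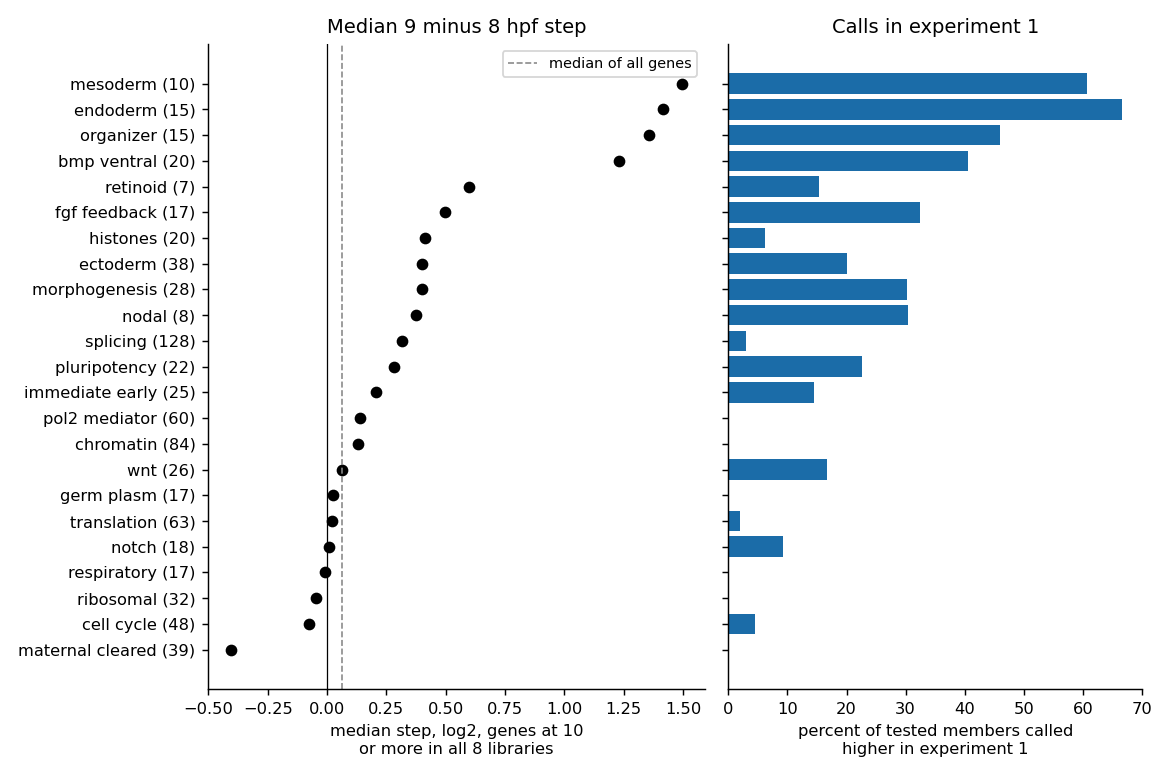
Left, median step from 8 to 9 hpf (log2) of each gene list over its members at 10 or more in all 8 libraries (number in brackets), with a dashed line at the median of all 7726 genes, 0.06. Right, percent of all tested members of the list called higher in experiment 1 (bars from 0). Lists were chosen with earlier results of these data known. Mesoderm, endoderm, organizer and BMP lists have medians of 1.23 to 1.5 and lead both panels, and maternal messages known to be cleared have the lowest median, -0.41.

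Genes of cell adhesion and movement gave 19 of 63 tested members (30.2%) higher in experiment 1 and 0 lower, and over all clutches the 2 copies of snai1 of 28 members. Has2, which makes hyaluronan, rose in experiment 1 as has2.S from 56 and 52 to 497 and 552 (3.26 ± 0.20, adjusted p = 8.43e-08) and was at 0 and 58 and then at 165 and 1118 in experiment 2. The protocadherin gene pcdh8.2.S rose in experiment 1 from 27 and 21 to 353 and 353, and in experiment 2 it was at 2 and 0 and then at 90 and 185. Marcksl1.S, a membrane-associated substrate of protein kinase C, was at 7953, 7211, 6358 and 8825 and then at 13317, 10437, 11181 and 12794 (0.66 ± 0.11, adjusted p = 0.0535), without overlap and without a call.

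Feedback genes of FGF signalling rose in experiment 1 for 11 of 34 tested members (32.4%), with 0 lower, and over all clutches 0 of 17 were called. The membrane protein gene flrt3.L rose in experiment 1 from 84 and 127 to 679 and 845 (2.86 ± 0.16, adjusted p = 3.98e-08), and it was at 0 and 20 and then at 521 and 307 in experiment 2. The phosphatase gene dusp5.L rose there as well (1.48 ± 0.15, adjusted p = 9.04e-06), with 191, 217, 109 and 68 followed by 535, 603, 558 and 1221. All pairs of both genes stepped up.

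In the Wnt list 10 of 60 tested genes (16.7%) rose in experiment 1 and 0 fell, while 0 of 26 were called over all clutches and their median step was 0.06, as over all 7726 genes. The Wnt target sp5l.L rose in experiment 1 (1.59 ± 0.11, adjusted p = 2.84e-07) and was at 627, 696, 125 and 200 and then at 2168, 1825, 952 and 691. The ligand wnt8a.S rose there from 109 and 116 to 371 and 454, with 29 and 0 and then 108 and 100 in experiment 2. Beta-catenin, as ctnnb1.L, was at 4314, 4561, 2322 and 3115 and then at 4569, 5564, 1142 and 3278 (adjusted p = 0.805).

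Notch genes rose in experiment 1 for 4 of 43 tested members (9.3%), and retinoic acid genes for 4 of 26 (15.4%), with 0 lower in both lists. Over all clutches 0 of 18 and 0 of 7 were called. The ligand gene jag1.L was at 241, 224, 355 and 88 and then at 577, 531, 580 and 609, higher in every pair. The receptor notch1.L, which rose in experiment 1 from 280 and 200 to 561 and 546, had 617 and 153 and then 334 and 35 in experiment 2, the opposite direction; the difference between experiments did not pass its test. The retinoic acid receptor gene rarg.S rose in experiment 1 from 207 and 250 to 614 and 568 and was at 49 and 61 and then at 135 and 106 in experiment 2.

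Immediate early and stress response genes gave 8 of 55 (14.5%) higher and 0 lower in experiment 1, and 0 of 25 over all clutches. The zinc finger gene egr1.S rose in experiment 1 from 71 and 68 to 254 and 218 and was at 76 and 162 and then at 281 and 266 in experiment 2, with no overlap. Ier5.L was at 1720, 1621, 269 and 1676 and then at 3125, 2869, 1851 and 2827, also with no overlap, and was not called (1.3 ± 0.36, adjusted p = 0.235).

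In experiment 1, 0 of 134 ribosomal protein genes, 0 of 118 respiratory chain genes and 0 of 109 chromatin genes were called in either direction, 2 of 99 translation factors rose (2.02%) and 5 of 167 splicing factors rose (2.99%), near the 2.72% of all tested genes. Over all clutches limma called 0 members of these lists. The splicing factor gene luc7l3.S and the nucleosome-binding gene hmgn1.S, both called over all clutches, are not in them. The zeros therefore do not cover every splicing or chromatin gene. The elongation factor gene eef1a1.L rose in experiment 1 from 929 and 991 to 2272 and 2008 (1.15 ± 0.10, adjusted p = 1.97e-06), while experiment 2 had 233 and 609 and then 104 and 655. The eef1a1.S copy was also called higher in experiment 1, and its steps were 1.28, 0.97, 2.03 and 0.28 in replicates 1 to 4. The SR protein gene srsf2.L rose in experiment 1 from 1822 and 1736 to 4503 and 3763 (1.21 ± 0.09, adjusted p = 3.35e-07), with 327 and 1001 and then 1010 and 1098 in experiment 2.

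Among splicing genes, rbm20.S, known in mammals as a splicing regulator of heart muscle, stepped up in all clutches, from 27, 37, 35 and 72 to 117, 277, 516 and 544, and was called in experiment 1 (2.47 ± 0.31, adjusted p = 7.42e-05). The highest member, rbm25.S, was at 6034 and 6776 in experiment 1 and at 41210 and 81458 in experiment 2 at 8 hpf, and at 7731, 8914, 60908 and 132278 at 9 hpf (0.50 ± 0.10, adjusted p = 0.0882). The large subunit of RNA polymerase II, polr2a.S, showed the same gap, with 8222, 11127, 49021 and 142268 and then 8310, 15005, 76670 and 161880 (0.32 ± 0.12, adjusted p = 0.46). In flowthrough polr2a.S was at 6269, 8620, 5172 and 8988 at 8 hpf, with no such gap between experiments.

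Histone genes, a list that holds HMGB genes too, gave 2 of 32 (6.25%, against 2.72% of all tested genes) higher in experiment 1 and 0 lower, and 0 of 20 over all clutches, with a median step of 0.41. The linker histone gene h1-6.L rose in experiment 1 from 583 and 375 to 1278 and 821 and was at 165 and 47 and then at 568 and 215 in experiment 2. The most abundant member, h2bc11.S, was at 54428, 69891, 16338 and 38105 and then at 90000, 100946, 37716 and 53876 (0.74 ± 0.13, adjusted p = 0.0648), and it stepped up in all 4 clutches.

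Of 788 listed tRNA genes, 41 were tested and 2 rose in experiment 1. They are arginine tRNA genes, trnar-ucg_gene38518 and trnar-ucg_gene47611, whose values were identical in these libraries, so they count as 1 measurement, a share near the 2.72% of all tested genes. It was 243 and 466 and then 914 and 828 in experiment 1, and 11 and 40 and then 0 and 13 in experiment 2.

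Few genes were called lower at 9 hpf. In experiment 1, 21 fell, with 1179 lower at an unadjusted p under 0.05 in limma. In experiment 2, 10 of the 21 had a mean step below 0, and 15 were listed at 0 in at least 1 library. Their median step there was 0, against -0.05 for all tested genes, so experiment 2 did not show the 21 falls as a set. The separate fit of experiment 1 on genes at 10 or more in all 8 libraries called 5 lower. Of these 5 genes, 4 had a mean step below 0 in experiment 2, 2 stepped down in both of its pairs, and 0 were called there. Their median step in experiment 2 was -0.63, against 0.11 for all genes of that stricter set. The transferrin receptor gene tfrc.L was at 593, 758, 481 and 229 at 8 hpf and at 248, 361, 280 and 248 at 9 hpf, a fall in experiment 1 (-1.16 ± 0.14, adjusted p = 4.02e-05) that replicate 4 did not share. The gene zfand4.L, which encodes a zinc finger protein, was at 559, 735, 866 and 4175 and then at 257, 372, 511 and 2951, lower in every clutch, with a fall in experiment 1 (-1.05 ± 0.13, adjusted p = 0.000103). So was ccdc138.L, at 343, 401, 374 and 94 and then 152, 210, 189 and 53 (experiment 1 step -1.05 ± 0.17, adjusted p = 0.000823). Neither was called over all clutches, with adjusted p of 0.221 for zfand4.L and 0.507 for ccdc138.L.

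Ccnb5.L, a B-type cyclin, fell in experiment 1 from 1164 and 1082 to 541 and 563 and was at 466 and 375 and then at 66 and 0 in experiment 2. The replication kinase gene cdc7.L fell in experiment 1 from 148 and 159 to 48 and 56, with 147 and 162 and then 98 and 0 in experiment 2. Both were lower in every clutch. Of the other genes that fell in experiment 1, germes.L of the germ plasm was lower in all pairs, at 96, 122, 64 and 20 and then 44, 59, 0 and 0. Drd4.L, tbc1d8.L, gtf2a1l.L and cbx8.S were higher at 9 hpf in replicate 4, where they were at 208, 120, 304 and 299 at 9 hpf against 0, 0, 3 and 2 at 8 hpf. In replicate 3 tbc1d8.L was higher as well, at 0 at 8 hpf and 83 at 9 hpf, and the others were lower.

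Most of the 21 genes were also lower in the other fractions. In flowthrough 14 of 21 were lower in all 4 pairs and 0 were higher in all 4. Of the 18296 tested genes, 14.3% were lower and 1732 genes were higher in all 4 pairs. In total RNA 16 of 21 were lower in both pairs, against 29.7% of tested genes. Median steps were -0.75 in bead RNA over the 4 pairs, -0.78 in flowthrough and -0.67 in total RNA. The flowthrough values of ccnb5.L were 1322, 1250, 1198 and 1101 at 8 hpf and 669, 570, 654 and 570 at 9 hpf, without overlap. Of the 21, 18 had a bead mean of 100 or more at 5 hpf and 0 had a mean under 10. Of the 18296 tested genes, 11142 had a mean of 100 or more and 1688 a mean under 10.

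Maternal messages known to be cleared were not called in any of these fits: of 62 tested, limma called 0 in experiment 1 and 0 of 39 over all clutches, where 0.115% and 0% of all genes were called lower, so these zeros are at the background. Their median step was -0.41 over the 39 genes, -0.16 in experiment 1 and -0.64 in experiment 2 over the 62. Cyclin A1, as ccna1.L, was at 7253, 5164, 4709 and 4894 and then at 4818, 3989, 2962 and 1969, lower in every clutch (-0.74 ± 0.17, adjusted p = 0.161). Cell cycle genes gave 3 higher (4.48%, against 2.72% of all tested genes) and 1 lower of 67 in experiment 1, among them the Cdk inhibitor cdkn1a.L, which rose from 103 and 86 to 201 and 290. Of 34 tested germ plasm genes 0 rose and 1 fell in experiment 1, germes.L. The RNA polymerase II and Mediator list had 0 higher and 1 lower of 120, gtf2a1l.L.

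Of 65 markers of late differentiated tissues 4 passed the filter and 0 were called, and of 23 markers of the follicle and ovary 2 passed and 0 were called. The summed level of the late markers ran from 269 to 427 at 8 hpf and from 0 to 488 at 9 hpf, and that of the ovary markers from 233 to 498 and from 19 to 488, over the tested members. Of these, mbp.S was at 219, 240, 52 and 121 and then at 255, 200, 0 and 0, and cyp17a1.L at 255, 429, 158 and 218 and then at 271, 314, 0 and 0. The zeros were in experiment 2, whose libraries had many tested genes at 0, and their part in these steps was not tested.

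The share of the column total held by the 44 genes was 0.718%, 0.701%, 0.727% and 1.38% at 8 hpf and 1.66%, 1.7%, 1.85% and 2.45% at 9 hpf. The 498 genes of experiment 1 held 2.82% and 2.91% at 8 hpf and 6.69% and 6.02% at 9 hpf in that experiment. In experiment 2 they held 1.47% and 2.64% and then 3.52% and 4.99%. The genes were chosen by their rise in these libraries, which fixes the direction of the shares, except for the 498 genes in experiment 2. Some of those 498 passed the filter only through a 9 hpf library of experiment 2.

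The largest steps by the smaller of the pair values in experiment 1 were of genes at low levels at 8 hpf. The creatine transporter gene slc6a8.L rose from 4 and 4 to 66 and 93 (3.99 ± 0.56, adjusted p = 0.000237) and slc6a8.S from 8 and 10 to 107 and 101 (3.40 ± 0.44, adjusted p = 0.000101). Cass4.L, which encodes a scaffold protein of the Cas family, rose from 75 and 93 to 1137 and 1204 (3.79 ± 0.16, adjusted p = 2.24e-09), a 13.9-fold gain. In experiment 2 cass4.L was at 54 and 0 and then at 242 and 822, and slc6a8.L at 41 and 0 and then at 100 and 436. Pcdh8.2.L rose in experiment 1 from 8 and 15 to 239 and 149, while experiment 2 had 0 and 197 and then 214 and 81, with replicate 4 in the opposite direction.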

How the data were processed

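The authors deposited 1 table, with 50489 genes as rows and 54 libraries as columns, in the unit score: values they normalized with DESeq2 and rounded to whole numbers, after Salmon 0.12.0, as the submitters' processing notes name both tools. The build is not given in the sources used here. No count test was run because these are not counts.

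Steps were tested on log2(value + 1) with limma 3.58.1 (trended, robust empirical Bayes, statmod 1.5.0, R 4.3.3) and a term for replicate number, with Benjamini-Hochberg adjustment over all genes of the fit. A call needed an adjusted p under 0.05 and a 2-fold change. The pseudocount understates the change of low genes. Numbers pair the libraries because the design text makes them clutches; same-numbered libraries had deviation correlations of 0.515, 0.517, 0.201 and 0.271, which also carry the difference between experiments (0.431 and 0.406 for differently numbered libraries of experiment 1). Within experiments the correlation was 0.561 in experiment 1 and 0.119 in experiment 2. Fits were run on simulated data in which the clutches of a gene varied alike. Experiment 2 varied more than experiment 1 here, so those runs do not show how the fits behave on these libraries.

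The planned fit over all 18296 genes called none, so the rule for named genes was applied, after values were seen, to the 7726 genes at 10 or more in all 8 libraries and to experiment 1. It took the 10 genes in each direction with the largest smallest pair step and a mean of at least 50, their homeologs, the 6 with the largest level change, and per list the 3 called with the smallest adjusted p and the highest gene not called. Members and lists were chosen with earlier results of these data known. Figures were drawn with matplotlib 3.10.9.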

Additional observations from a re-analysis of the deposited data

Results flagged for a closer look

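For each of the 84 named genes the 4 bead libraries of 8 hpf and of 9 hpf were searched for a library far from the other 3. Of 168 such groups of 4 libraries, 23 held one. The limit used gives about 1 in 20 by chance if the 4 libraries vary alike. Those of experiment 2 varied more than those of experiment 1, so that rate does not apply here. Replicate 4 was the library in 17 of the 23, replicate 3 in 6 and replicates 1 and 2 in 0. The difference of steps between experiments passed its test for no gene.

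At 8 hpf replicate 4 stood high for hmgn1.S at 11035 (the others at 3971 to 4445), for zfand4.L at 4175 (559 to 866), for nodal2.L at 211 (34 to 41), for pcdh8.2.L at 197 (0 to 15) and for egr1.S at 162 (68 to 76). It stood low for ventx1.2.S at 68 (288 to 329) and was listed at 0 for cdkn1a.L (86 to 103).

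At 9 hpf replicate 4 stood high for stox1.S at 7353 (1210 to 2054), grhl3.L at 3700 (1082 to 1225), zfand4.L at 2951 (257 to 511) and rassf7.L at 2526 (1378 to 1559). The same held for dusp5.L at 1221 (535 to 603), gata4.S at 711 (106 to 168), slc6a8.L at 436 (66 to 100), cbx8.S at 299 (51 to 84) and drd4.L at 208 (0 to 32). It stood low for btg5.3.L at 509 (1764 to 2004).

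Replicate 3 at 8 hpf stood high for sall4.L at 4434 (3779 to 3864) and slc6a8.L at 41 (0 to 4). It stood low for sox17b.1.L at 382 (1282 to 1383) and ier5.L at 269 (1621 to 1720) and was listed at 0 for has2.S (52 to 58). At 9 hpf it stood low for chrd.1.S at 304 (937 to 1053). The zfand4.L values of replicate 4 were far from the others at both times.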

How the results depend on the processing

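Over all 18296 genes the paired fit called 0 higher and 0 lower, and leaving out each replicate or library in turn left both at 0. It called 1 higher with no replicate block and no experiment term, 22 higher and 3 lower with all 20 bead libraries in 1 fit, 498 and 21 with experiment 1 alone, 458 and 20 with array weights (chosen after seeing the data), and 44 higher on the 7726 genes. On those 7726 genes the 44 calls became 4 with an experiment term in place of the replicate block, 1 with neither and 22 with all 20 libraries. They became 249 with experiment 1 alone and 0 to 38 without 1 replicate. After quantile normalization 30 were called higher, 27 of the 44 stayed called, and the smallest step of the 44 was 0.57 against 1.03 before. The size of the steps thus depends on the scaling. Lower calls there were 2 after quantile normalization, 4 with all 20 libraries, 5 with experiment 1 and 2 with experiment 2 alone. All 44 genes kept their direction in each of these fits. Except after quantile normalization this was fixed beforehand, because each of the 44 rose in every pair.

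In experiment 1 the 498 and 21 calls became 188 and 1 with no replicate block and 249 and 5 on the 7726 genes, and lower calls were 54 after quantile normalization. Experiment 2 gave 51 and 2 on the 7726 genes. The bead against flowthrough test gave 2 there. Steps of at least 2-fold in all 4 pairs numbered 82 and 0 there, and the 7 lower became 1 with a pseudocount of 10 and 37 after quantile normalization. Steps that differ between experiments numbered 0 to 10984 without 1 replicate; the high counts arise without replicate 3 (10984) or 4 (10696), where the lone pair of experiment 2 is assumed to vary like experiment 1.

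Among named genes of the stricter set, direction turned only in genes that were not called over all clutches. It turned in experiment 2 alone for lefty.L (-0.34), sox17b.1.L (-0.21), vegt.L (-0.0091) and eef1a1.L (-0.53). In experiment 1 alone it turned for dand5.L (-0.082), notch1.L (1.22) and ctnnb1.L (0.18). After quantile normalization it turned for sall4.L (-0.0099), notch1.L (0.22), rbm25.S (-0.063) and polr2a.S (-0.30). Named genes outside that set were not compared in this way. Some of them turned between experiments 1 and 2, such as hhex.L (3.55 and -0.096) and tbc1d8.L (-1.56 and 6.66). Without 1 replicate, dand5.L ran from -0.16 to 0.16, notch1.L from -0.66 to 0.52, ctnnb1.L from -0.29 to 0.15, eef1a1.L from -0.011 to 0.80 and rassf7.S from -0.41 to 0.12. The causes were not tested. Depth is unknown, and values of 0 in experiment 2 limit what it can show for genes at low levels.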
